A study of Mus musculus with 6 samples.

Results

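The 39 mouse Hox genes were measured in dorsal root ganglia (DRG) after ankle sprain surgery. They are the rows of the expression table whose symbol is Hox, a cluster letter from a to d and a paralog number, 39 of 22064 gene rows. The study asked which genes might take part in pain after lateral ankle sprain (LAS). On day 14, 3 LAS libraries and 3 sham libraries were made from the ipsilateral L3-5 DRG, the ganglia that serve the hind limb. LAS mice had 2 lateral ankle ligaments transected, the anterior talofibular and the calcaneofibular, whereas sham mice had the incision with the ligaments left intact. All mice were wild-type (WT), and the methods describe young adult C57BL/6 animals of both sexes without giving the sex of a library. Nothing states how many animals a library holds or how much RNA each ganglion of the 3 lumbar levels gave, so p-values here measure the spread between these libraries only.

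Hox genes encode homeodomain transcription factors that lie side by side in clusters and give cells their position along the body axis. Genes with low paralog numbers are switched on early and far forward, and genes with high numbers are switched on later and further back, so that each segment of the trunk carries its own combination. In the spinal cord and its ganglia this combination helps to set which neurons are made at limb and trunk levels, and part of it persists in the adult.

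Expression is given in FPKM, fragments scaled to transcript length and library size, so that levels of different genes can be compared per length. The reads behind each value are not in the table, so counting intervals are not given, and the FPKM of a library summed to between 398503 and 448142. The sensory neuron markers were high in every library, and their summed level was 9435 to 9590 FPKM across LAS and 9278 to 9773 FPKM across sham libraries. Sham replicate 3 stood apart. It had the highest level of all 8 skeletal muscle markers, with a sum of 1902 FPKM against 31.4 to 236 FPKM in LAS libraries and 30.2 and 218 FPKM in the other sham libraries. It was also highest in all 7 neutrophil and marrow markers, which summed to 103 to 391 FPKM over LAS and 61.8 to 1963 FPKM over sham libraries. The same held for all 6 erythroid markers, with 4960 to 6424 FPKM over LAS and 3618 to 14139 FPKM over sham libraries. LAS replicate 2 had the highest sum of the leptomeningeal markers, at 1091 FPKM, against 177 and 245 FPKM in the other LAS and 150 to 222 FPKM in sham libraries. Markers of spinal cord cells summed to only 2.42 to 4.06 FPKM over LAS and 2.84 to 3.38 FPKM over sham libraries, and 1 of 8 (Aqp4) reached the level needed for testing. Some values that rest on these libraries are therefore also given without 1 or both of them.

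The ganglia carried a broad Hox code that ended at paralog 11. Of the 39 genes, 30 reached the level for testing, 0.5 FPKM or more in 3 or more libraries, 5 were lower, 3 were listed at 0 in every library (Hoxc12, Hoxd12 and Hoxd13) and 1 was blank (Hoxa13). All 15 genes of paralogs 4 to 8 and all 4 of paralog 9 reached that level. Summed over clusters, paralog 9 held the most expression, with 46.3 ± 0.917 FPKM in LAS and 41.5 ± 1.63 FPKM in sham libraries (SD, n = 3 each). Paralog 10 held 26.4 ± 3.17 FPKM in LAS and 22.3 ± 3.71 FPKM in sham libraries, a range that overlapped those of paralogs 6 to 8. Paralog 11 held 3.28 ± 2.39 FPKM in LAS and 2.07 ± 2.51 FPKM in sham libraries. Paralog 13 held 0.11 ± 0.0700 FPKM in LAS and 0.0133 ± 0.0231 FPKM in sham libraries.

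**Figure D1:**
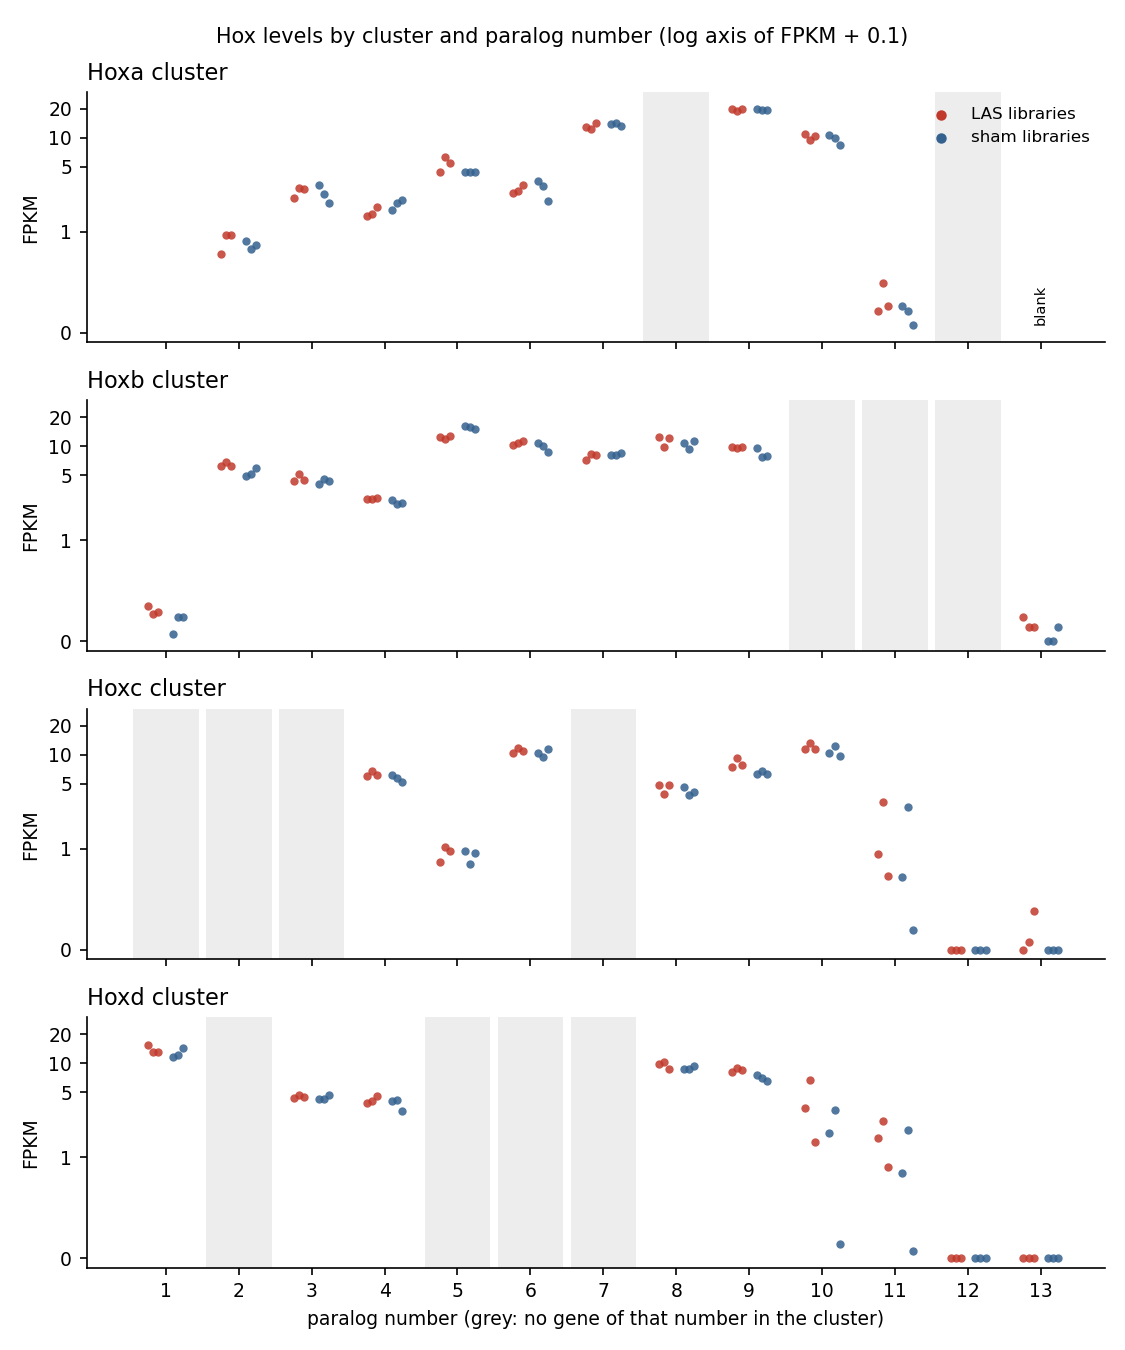
Level of the Hox genes reported here (FPKM, on a log axis after adding 0.1) by paralog number, 1 panel per cluster, with 1 point per library (LAS red, sham blue, in replicate order) and grey where a cluster lacks that number. Levels stay between about 1 and 20 FPKM for most genes up to paralog 10, and of the tested genes Hoxd10, Hoxd11 and Hoxc11 scatter most between libraries, before the drop to 0.

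The most anterior genes split between clusters. Hoxd1, which in mice takes part in the development of nociceptive neurons, was among the higher Hox genes, with 15.5, 13.3 and 13.1 FPKM in LAS and 11.8, 12.2 and 14.5 FPKM in sham libraries. Its paralog Hoxb1, best known from the hindbrain, was at 0.09 to 0.13 FPKM in LAS and 0.02 to 0.08 FPKM in sham libraries and did not reach the level for testing. Hoxb2, which acts in hindbrain motor neurons, exceeded its paralog Hoxa2, a regulator of the branchial arches, in every library. Hoxa2 was at 0.55 to 0.91 FPKM in LAS and 0.63 to 0.78 FPKM in sham libraries. Of the paralog 3 genes, Hoxb3 and Hoxd3 were at 4.40 to 5.12 and 4.36 to 4.63 FPKM in LAS and at 4.04 to 4.59 and 4.23 to 4.69 FPKM in sham libraries, above Hoxa3 in all 6.

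Genes of paralogs 4 to 8, which pattern the neck and trunk, made up about as much of the summed Hox FPKM as all others, 47.2% to 51.1% in LAS and 50.3% to 52.8% in the sham libraries. Hoxa7 varied by 1.17-fold between its lowest and highest library, with 13.1, 12.4 and 14.2 FPKM in LAS and 13.9, 14.5 and 13.2 FPKM in sham libraries. Hoxb5, which in the neural crest acts in the enteric nervous system, had the highest mean of this range over all 6 libraries, though Hoxa7 exceeded it in LAS. It averaged 12.5 ± 0.414 FPKM in LAS and 15.7 ± 0.596 FPKM in sham libraries (SD, n = 3 each). Hoxb8, whose loss in mice alters grooming and skin sensation, was at 9.95 to 12.5 FPKM in LAS and 9.42 to 11.4 FPKM in sham libraries. The lowest member was Hoxc5, a partner of Hoxa5 in cervical motor neurons, at 0.70 to 1.04 FPKM in LAS and 0.67 to 0.93 FPKM in sham libraries. Within a paralog number the leading gene thus differed by cluster, with Hoxc4, Hoxb5, Hoxc6, Hoxa7 and Hoxb8 in front.

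Hoxa9 led the whole family. It was at 19.87, 19.16 and 20.06 FPKM in LAS and 19.96, 19.33 and 19.51 FPKM in sham libraries. The groups overlapped fully, and the highest library exceeded the lowest by 1.05-fold, less than for any other tested Hox gene. The paralog 10 genes Hoxa10 and Hoxc10, both known for setting lumbar identity in motor neurons and vertebrae, varied by 1.32-fold and 1.36-fold. Hoxc10 was at 11.5, 13.5 and 11.5 FPKM in LAS and 10.5, 12.3 and 9.86 FPKM in sham libraries. Hoxa10 was at 11.02, 9.49 and 10.45 FPKM in LAS and 10.64, 10.04 and 8.37 FPKM in sham libraries. For both genes sham 3 was the lowest library, and the groups overlapped.

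At the caudal edge, 3 genes varied between libraries far more than any other member. Hoxd10, which acts with Hoxa10 and Hoxc10 in lumbar motor neurons and hind limb innervation, was at 3.39, 6.79 and 1.49 FPKM in LAS and 1.83, 3.29 and 0.04 FPKM in sham libraries. Hoxd11, known from the kidney, the forearm and the sacral vertebrae, was at 1.63, 2.49 and 0.77 FPKM in LAS and 0.66, 2.00 and 0.02 FPKM in sham libraries. Hoxc11, a hind limb and lumbosacral gene, was at 0.87, 3.23 and 0.47 FPKM in LAS and 0.46, 2.82 and 0.06 FPKM in sham libraries. All 3 genes were highest in LAS 2 and lowest in sham 3. For Hoxd11 and Hoxc11 the whole order was the same, LAS 2, sham 2, LAS 1, LAS 3, sham 1 and sham 3, so that high and low libraries lay in both groups.

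**Figure D2:**
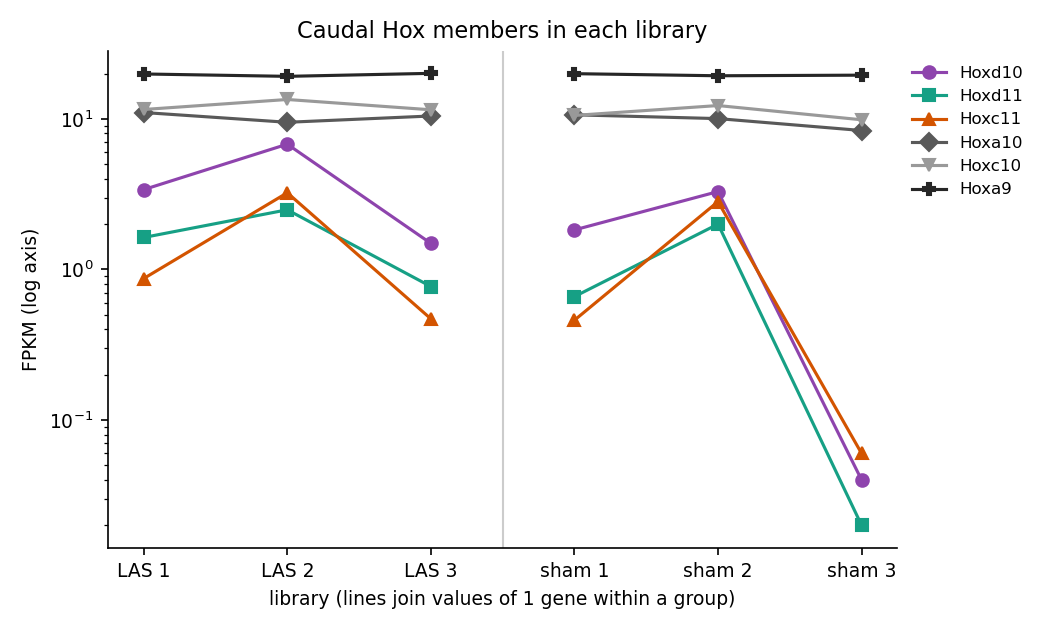
FPKM (log axis) of 6 caudal Hox genes in each library, LAS on the left and sham on the right, with lines joining the values of a gene within a group. Hoxa9, Hoxa10 and Hoxc10 stay between 8.37 and 20.06 FPKM, while Hoxd10, Hoxd11 and Hoxc11 peak in LAS 2 and sham 2 and drop to 0.02 to 0.06 FPKM in sham 3.

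The highest library exceeded the lowest by 170-fold for Hoxd10, 125-fold for Hoxd11 and 53.8-fold for Hoxc11. Rounding of the low values to 2 decimals leaves these ratios anywhere from 151 to 194, from 99.4 to 166 and from 49.6 to 58.8. Without sham 3 the ratios were 4.56 for Hoxd10, 3.77 for Hoxd11 and 7.02 for Hoxc11. For the other 27 tested members the largest such ratio over 6 libraries was 1.66, with a median of 1.32. The standard deviation of log2(FPKM + 0.1) over the 6 libraries was 1.96 for Hoxd10, 1.65 for Hoxc11 and 1.62 for Hoxd11, and the next member, Hoxa2, had 0.256. Values above 1 were found in 3 of 30 tested Hox genes and in 1.51% of all 14006 tested genes, and 33 genes had a larger value than Hoxd10. The median was 0.160 over the tested Hox genes and 0.125 over all tested genes.

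**Figure D3:**
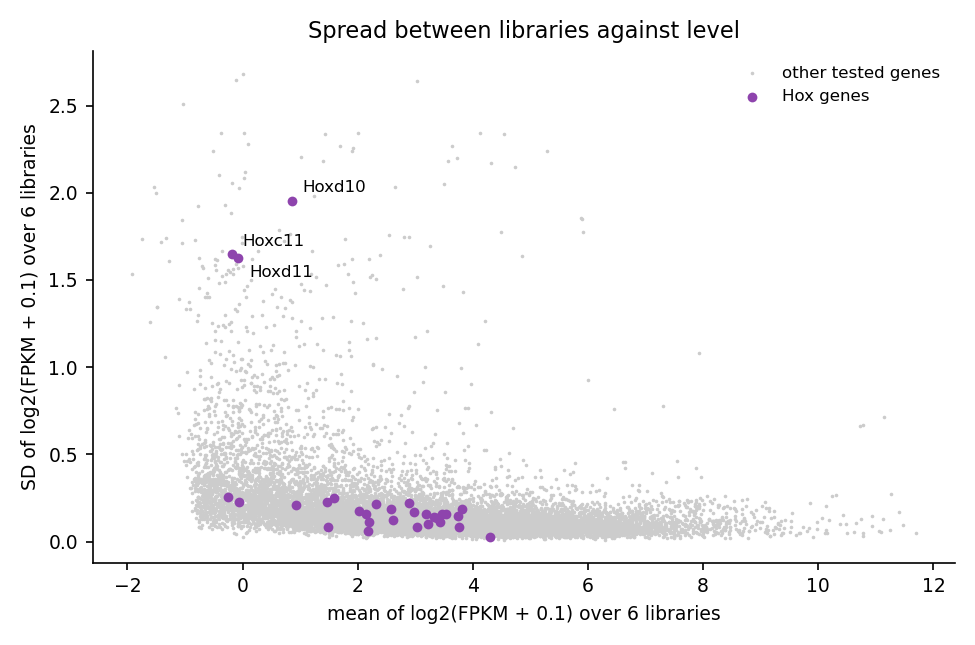
Standard deviation of log2(FPKM + 0.1) over the 6 libraries against its mean, 1 point per tested gene, with the 30 tested Hox genes in purple over all others in grey. Hoxd10, Hoxc11 and Hoxd11 lie between 1.62 and 1.96, and the other 27 Hox genes at 0.256 or below.

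The 3 genes made up a changing share of the paralog 10 and 11 signal. Together they gave 20.7%, 35.1% and 11.03% of it in LAS and 12.2%, 26.6% and 0.653% in sham libraries. The sum of Hoxa10 and Hoxc10, in contrast, was 22.6, 22.9 and 21.9 FPKM in LAS and 21.2, 22.3 and 18.2 FPKM in sham libraries. Of all Hox FPKM, paralogs 10 and 11 gave 13.5%, 16.1% and 11.7% in LAS and 11.9%, 14.9% and 9.47% in sham libraries. LAS 2 and sham 2 were the highest of their groups, and the groups overlapped.

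The libraries at both ends of this range also differed in markers of other tissue. Sham 3, the lowest, had the muscle, marrow and erythroid excess given above. Acta1, skeletal muscle actin, was at 61.9, 24.6 and 7.86 FPKM in LAS and 8.94, 60.8 and 523 FPKM in sham libraries. LAS 2 had the leptomeningeal excess. Ptgds, prostaglandin D synthase, was at 237, 1073 and 168 FPKM in LAS and 143, 157 and 216 FPKM in sham libraries. The neuron marker Uchl1 was at 2204, 2187 and 2119 FPKM in LAS and 2148, 2102 and 2338 FPKM in sham libraries. The part of these tissues in the Hox levels was not tested. In bulk tissue, fewer cells of a type and less RNA per cell cannot be told apart.

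The start regions of Hoxd10 and its neighbour Hoxd11 are shown beside those of Hoxa10, which has the same paralog number as Hoxd10. Whether these sequences bear on the spread between libraries was not tested. RefSeq start regions (GRCm38.p6) matched 22 of the 39 Hox genes, in 24 entries, and Hoxc11 was not among them. Each sequence is the 250 bases before an annotated start, 5′ to 3′ on the gene's strand. Capitals mark CCAAT (or ATTGG, its reverse complement), the motif named CCAAT box, and CACGTG, the motif named E-box.
Hoxd10, chr2:74691641-74691890, plus strand: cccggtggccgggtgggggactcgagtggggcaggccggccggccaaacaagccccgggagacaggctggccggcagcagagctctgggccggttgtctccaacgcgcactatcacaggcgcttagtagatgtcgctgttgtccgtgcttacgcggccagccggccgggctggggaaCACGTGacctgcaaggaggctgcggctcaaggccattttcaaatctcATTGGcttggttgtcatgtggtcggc
Hoxd11, chr2:74679308-74679557, plus strand: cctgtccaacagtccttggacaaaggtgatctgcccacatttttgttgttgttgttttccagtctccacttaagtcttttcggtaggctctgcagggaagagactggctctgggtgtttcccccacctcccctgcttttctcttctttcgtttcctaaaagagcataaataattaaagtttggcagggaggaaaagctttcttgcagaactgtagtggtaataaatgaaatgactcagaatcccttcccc
Hoxd11, chr2:74682073-74682322, plus strand: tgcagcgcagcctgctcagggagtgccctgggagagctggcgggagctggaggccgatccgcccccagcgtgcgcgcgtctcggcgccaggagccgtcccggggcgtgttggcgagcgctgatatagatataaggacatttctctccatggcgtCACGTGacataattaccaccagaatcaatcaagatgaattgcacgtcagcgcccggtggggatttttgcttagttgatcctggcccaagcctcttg
Hoxa10, chr6:52234940-52235189, minus strand: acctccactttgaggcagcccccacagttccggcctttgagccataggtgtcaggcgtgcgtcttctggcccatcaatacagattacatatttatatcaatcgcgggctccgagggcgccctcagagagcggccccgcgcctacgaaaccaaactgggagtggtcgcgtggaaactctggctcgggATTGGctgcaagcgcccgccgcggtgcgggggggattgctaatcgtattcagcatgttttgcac
Hoxa10, chr6:52240855-52241104, minus strand: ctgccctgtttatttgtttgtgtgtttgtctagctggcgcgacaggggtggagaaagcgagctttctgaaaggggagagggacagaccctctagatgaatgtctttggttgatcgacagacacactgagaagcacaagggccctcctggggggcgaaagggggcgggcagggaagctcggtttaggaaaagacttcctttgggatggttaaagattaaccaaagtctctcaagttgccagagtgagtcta
These motifs, together with TATAAA and GGGCGG, were picked after the letters had been seen and searched on both strands, and no matches overlap in these regions. Hoxd10 held CCAAT and CACGTG, and the start of Hoxd11 nearer to Hoxd10 held CACGTG and GGGCGG. The other start of Hoxd11 held none of the 4. Of the Hoxa10 starts, 1 held CCAAT and TATAAA and the other GGGCGG. Among the 250 bases before 32851 annotated mouse starts, CCAAT was found in 33.8%, CACGTG in 6.02%, TATAAA in 12.4% and GGGCGG in 32.7%. These matches describe the letters only.

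The remaining posterior genes were near the floor of the table. Hoxa11, which acts with Hoxd11 in kidney and limb, was at 0.07, 0.23 and 0.09 FPKM in LAS and 0.09, 0.07 and 0.02 FPKM in sham libraries, again with its highest value in LAS 2 and its lowest in sham 3. Hoxb13, a gene of the tail bud and prostate, was at 0.08, 0.04 and 0.04 FPKM in LAS and 0, 0 and 0.04 FPKM in sham libraries. Hoxc13, a gene of hair and nail, was at 0, 0.02 and 0.15 FPKM in LAS and at 0 in all sham libraries. Its signal thus lay mostly in LAS 3, and the gene was too low to be tested here. The study, by its own analysis, lists Hoxc13 among its most strongly upregulated genes. Hoxc11 entered the test with exactly 3 libraries above 0.5 FPKM.

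Ankle sprain surgery came with no Hox change that passed the test. Limma was fitted to log2(FPKM + 0.1) of all 14006 tested genes, and a gene was called at an adjusted p of at most 0.05 (Benjamini-Hochberg) and a fold of at least 1.5. It called 0 of the 30 tested Hox genes, as it called 0% of all tested genes, and the adjusted p was 1.00 for each Hox gene. At an unadjusted p of at most 0.05, 3 Hox genes were higher in LAS (10% of 30, against 2.22% of all tested genes) and 1 was lower (3.33%, against 1.31%). Fold changes on this scale understate those of low genes. For the 27 tested members other than the 3 variable ones, log2 fold changes ran from -0.33 to 0.35, and the 95% intervals together spanned -0.62 to 0.68, with a median half-width of 0.23. Without sham 3, limma again called 0 of 30, with 4 higher (6.45% of all tested genes) and 1 lower (3.72%) at an unadjusted p of at most 0.05.

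**Figure D4:**
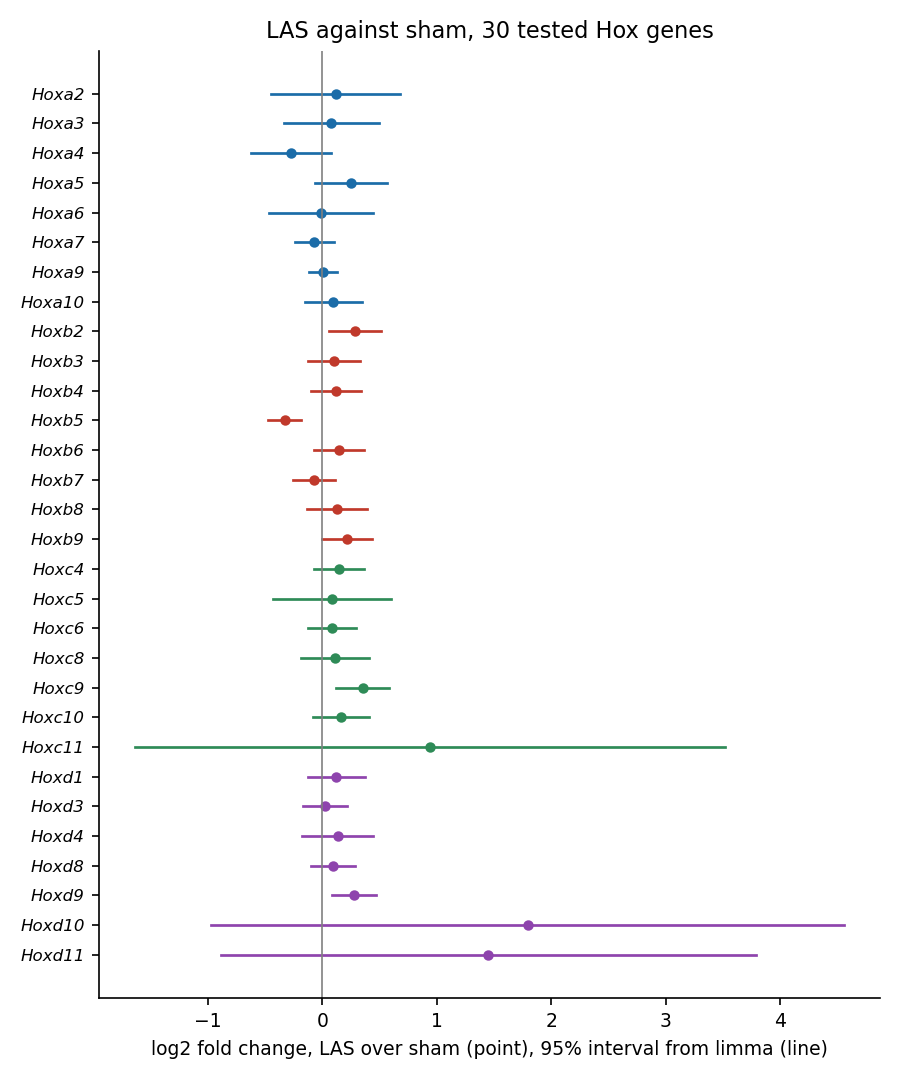
Log2 fold change of LAS over sham (points) with the 95% interval from limma (lines) for the 30 tested Hox genes, coloured by cluster. Most points lie slightly above 0 with intervals that cross it, Hoxb5 lies at -0.33, and the intervals of Hoxd10, Hoxd11 and Hoxc11 are by far the widest.

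Hoxb5 was the only tested member whose LAS libraries all lay below its sham libraries, 1 of 30 members against 3.81% of all tested genes. It was at 12.64, 11.99 and 12.76 FPKM in LAS and 16.14, 15.96 and 15.03 FPKM in sham libraries. The 2 groups were separated by more than the range of either. Its log2 fold change was -0.33 (SE 0.0604, interval -0.47 to -0.19), with an unadjusted p of 0.000907 from limma, which ranked it 10 of all tested genes, and an adjusted p of 1.00. Without sham 3 the log2 fold change was -0.36 and the adjusted p from limma 0.215, within a range of 0.160 to 1.00 over its alternatives. The genes beside it in the cluster did not share the pattern, since Hoxb4 had a log2 fold change of 0.12 and Hoxb6 one of 0.14.

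In the other direction, 5 of 30 tested members were higher in every LAS library than in any sham library, against 5.89% of all tested genes. Of these, 3 are paralog 9 genes, known for thoracic and lumbar patterning. Hoxc9, which sets thoracic motor neuron identity, was at 7.58, 9.40 and 7.92 FPKM in LAS and 6.26, 6.80 and 6.32 FPKM in sham libraries. Hoxd9 was at 8.21, 9.04 and 8.50 FPKM in LAS and 7.59, 7.11 and 6.52 FPKM in sham libraries. Hoxb9 was at 9.78, 9.67 and 9.78 FPKM in LAS and 9.57, 7.74 and 7.92 FPKM in sham libraries. The gap between the groups was smaller than the range within LAS for Hoxc9 and Hoxd9, and sham 1 came close to the LAS libraries for Hoxb9. The log2 fold changes were 0.35 for Hoxc9 (SE 0.0968, unadjusted p = 0.00835 from limma), 0.28 for Hoxd9 (SE 0.0813, unadjusted p = 0.0113) and 0.22 for Hoxb9 (SE 0.0919, unadjusted p = 0.0507), each with an adjusted p of 1.00. The fourth member, Hoxa9, had a log2 fold change of 0.01 with an interval from -0.12 to 0.13.

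The other 2 are anterior genes of the Hoxb cluster. Hoxb2 was at 6.25, 6.89 and 6.28 FPKM in LAS and 4.89, 5.11 and 5.93 FPKM in sham libraries, with sham 3 the nearest to LAS. Its log2 fold change was 0.28 (SE 0.0958, unadjusted p = 0.0208 and adjusted p = 1.00 from limma). Hoxb4, which acts in blood stem cells and the neck, was at 2.78, 2.80 and 2.88 FPKM in LAS and 2.73, 2.47 and 2.56 FPKM in sham libraries, with a log2 fold change of 0.12 (SE 0.0929, unadjusted p = 0.233 and adjusted p = 1.00 from limma). Without sham 3, Hoxb2 had a log2 fold change of 0.37 and an adjusted p of 0.340 from limma, within 0.300 to 1.00 over its alternatives. With that library left out, 8 members were higher in every LAS library, against 17.6% of all tested genes, and 1 was lower, against 11.3%. The counts of members higher and lower without overlap were 9 and 1 without LAS 1, against 11.3% and 7.30% of all tested genes, 7 and 1 without LAS 2 (11.5% and 7.57%) and 7 and 3 without LAS 3 (8.87% and 6.33%). Without sham 1 they were 7 and 2 (10.8% and 8.21%), and without sham 2 they were 9 and 1 (9.45% and 7.65%).

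**Figure D5:**
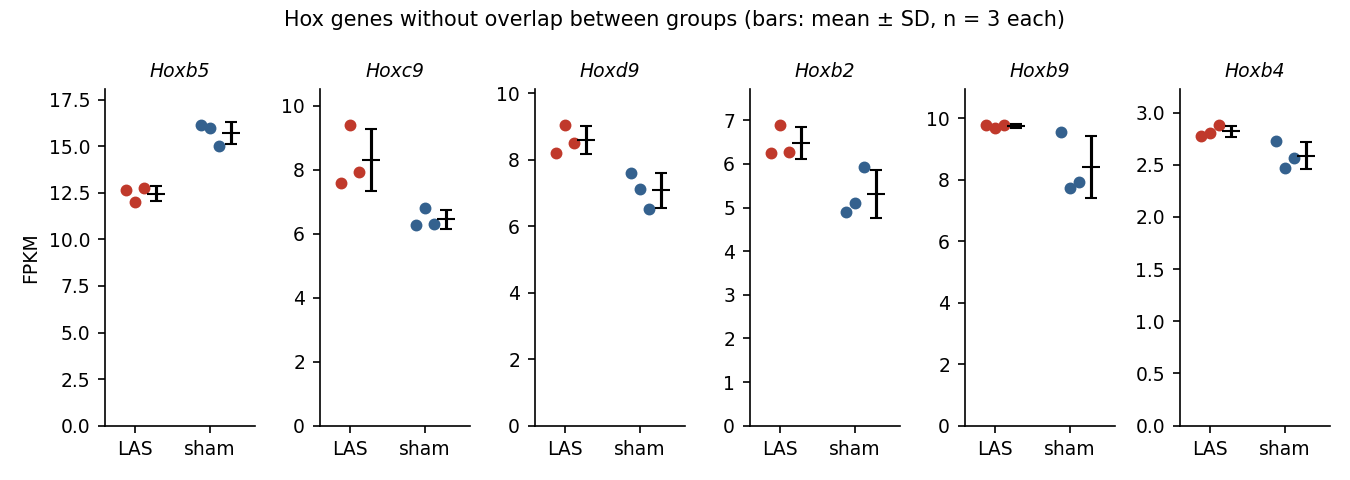
FPKM of the 6 Hox genes whose LAS (left, red) and sham (right, blue) libraries did not overlap, 1 point per library with mean and SD bars (n = 3 each) and axes from 0. Hoxb5 is lower in LAS, at 12.5 against 15.7 FPKM on average, and the other 5 are higher by smaller differences in FPKM.

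The 3 variable genes had the largest fitted differences and the least certain ones. The log2 fold change was 1.79 for Hoxd10 (SE 1.17, interval -0.97 to 4.56), 1.45 for Hoxd11 (SE 0.989, interval -0.89 to 3.79) and 0.94 for Hoxc11 (SE 1.09, interval -1.64 to 3.52), and the adjusted p from limma was 1.00 for each. Without sham 3 the values were 0.40 for Hoxd10, 0.32 for Hoxd11 and -0.06 for Hoxc11. Without LAS 2 they were 1.28, 1.09 and 0.22, and without sham 2 they were 2.70, 2.38 and 2.03. Leaving out sham 3 thus removed most of each difference and reversed that of Hoxc11. The difference of Hoxc11 also fell most of the way to 0 without LAS 2.

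The leading genes of the other paralog numbers had small fitted differences. For Hoxd1 the log2 fold change was 0.12 (interval -0.13 to 0.37), for Hoxb3 0.10 (-0.13 to 0.33), for Hoxc4 0.15 (-0.07 to 0.36) and for Hoxc6 0.09 (-0.12 to 0.29). Further back it was -0.07 for Hoxa7 (-0.24 to 0.10), 0.13 for Hoxb8 (-0.13 to 0.39) and 0.16 for Hoxc10 (-0.09 to 0.41). All of these intervals include 0, and the upper bounds stay under 0.42. Of the genes not detailed above, Hoxa5 had 4.38, 6.31 and 5.43 FPKM in LAS and 4.46, 4.44 and 4.45 FPKM in sham libraries, and Hoxa4 had 1.49, 1.57 and 1.88 FPKM in LAS and 1.75, 2.05 and 2.24 FPKM in sham libraries. The groups overlapped for both.

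Across the family, 25 of 30 tested members had a fitted log2 fold change above 0, against 51.7% of all tested genes, and the median was 0.12, against 0.0043 over all tested genes. All 14 tested genes of the Hoxc and Hoxd clusters lay above 0, as did 5 of 8 in Hoxa and 6 of 8 in Hoxb. By position, 6 of 6 tested genes of paralogs 1 to 3 lay above 0, 10 of 15 of paralogs 4 to 8, 4 of 4 of paralog 9 and 5 of 5 of paralogs 10 and 11. The genes share libraries, so these counts are no independent votes. Summed over all Hox rows, the libraries held 211, 222 and 212 FPKM in LAS and 204, 204 and 194 FPKM in sham libraries, which did not overlap. This sum was not scaled to the total FPKM of a library, which differed too. The total was 410305, 411642 and 404558 FPKM in LAS and 398503, 399982 and 448142 FPKM in sham libraries. Markers of other cells also separated the groups. The 6 satellite glia markers summed to 2692 to 2871 FPKM over LAS and 2915 to 3099 FPKM over sham libraries. Of the 6 leptomeningeal markers, 5 were tested and all 5 lay above 0. Limma called 0 of them, and 3 had an unadjusted p of 0.05 or less and were higher in LAS, against 2.22% of all tested genes. Foxd1 and Slc47a1, 2 of these 5, were higher in every LAS library, against 5.89% of all tested genes. They were at 1.42 to 1.98 and 2.18 to 4.64 FPKM in LAS and 0.62 to 1.29 and 1.27 to 1.70 FPKM in sham libraries. The part of these cells in the Hox sum was not tested. Paralog 9 alone summed to 45.4, 47.3 and 46.3 FPKM in LAS and 43.4, 40.98 and 40.3 FPKM in sham libraries.

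Partners of the Hox proteins were expressed, without a called difference. All 9 genes of the PBX, MEIS and PKNOX cofactors, which bind DNA together with Hox proteins, were tested, with 4 above 0, 5 below and 0 called by limma, and 0 had an unadjusted p of at most 0.05. Pknox2 and Meis3 were the highest, with 26.5 ± 1.42 and 18.9 ± 0.658 FPKM in LAS and 27.5 ± 2.52 and 20.3 ± 1.32 FPKM in sham libraries (SD, n = 3 each). Pknox1, 1 of these 9, was higher in every LAS library, against 5.89% of all tested genes. It was at 4.56 ± 0.0404 FPKM in LAS and 4.17 ± 0.154 FPKM in sham libraries.

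Regulators of the clusters had no called difference either. Of 30 listed Polycomb, Trithorax and retinoid genes and others that act on Hox clusters, 27 were tested, with 15 above 0, 12 below, 0 called by limma and 0 at an unadjusted p of at most 0.05. Phc2, a Polycomb subunit, averaged 42.6 ± 2.90 FPKM in LAS and 43.7 ± 2.02 FPKM in sham libraries, and Rarg, a retinoic acid receptor, 29.9 ± 4.65 FPKM in LAS and 26.7 ± 1.94 FPKM in sham libraries. The smallest p belonged to the Polycomb genes Pcgf2, at 14.5 ± 1.099 FPKM in LAS and 12.9 ± 1.03 FPKM in sham libraries, and Cbx2, at 3.14 ± 0.469 FPKM in LAS and 2.61 ± 0.0721 FPKM in sham libraries. Pcgf2, 1 of these 27, was higher in every LAS library, against 5.89% of all tested genes. Of 14 genes that flank the clusters, 9 were tested, with 4 above 0, 5 below and 0 called by limma. Skap2, beside the Hoxa cluster and 1 of these 9, was lower in every LAS library, against 3.81% of all tested genes. It was at 8.54 ± 0.633 FPKM in LAS and 9.64 ± 0.554 FPKM in sham libraries. Mtx2 and Hibadh, the highest of the list, averaged 35.0 and 30.2 FPKM in LAS and 31.8 and 30.5 FPKM in sham libraries. Smug1 was at 4.19 ± 0.566 FPKM in LAS and 3.69 ± 0.0781 FPKM in sham libraries. Evx1 and Evx2, homeobox genes at the posterior ends of Hoxa and Hoxd, were at 0 to 0.01 FPKM in all 6 libraries.

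The RefSeq gene table matched all 39 Hox genes and has 6 pairs whose annotated spans overlap. They involve 10 genes, Hoxa3 with Hoxa4, Hoxa5 and Hoxa6, Hoxb3 with Hoxb4, Hoxd3 with Hoxd4, and Hoxd10 with Hoxd11. Whether fragments in such overlaps were assigned by strand is not stated, so the levels of these genes may share fragments. Hoxc11 is in none of these pairs. Whether shared fragments bear on the spread between libraries was not tested.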

How the data were processed

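Total RNA of ipsilateral L3-5 DRG was sequenced by the authors on the BGISEQ-500 and aligned to the mouse genome, with an aligner, annotation and build not given in the sources used here. Values were deposited as FPKM per gene and library, rounded by the authors to 2 decimals, so the fragments behind a gene's value cannot be read from them. The study lists nearly equal read totals for the 6 libraries, and no counts per gene were used here. Columns with the authors' own p-values, q-values and fold changes were not used. Groups follow the sample labels.

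Genes kept for testing had 0.5 FPKM or more in 3 or more of the 6 libraries, 14006 in all. Their values, as log2(FPKM + 0.1), entered a fit by limma (version 3.58.1, R 4.3.3) that let the variance follow the mean. P-values were two-sided and adjusted over all these genes (Benjamini-Hochberg). The test was checked on simulated data in which genes varied independently and planted effects exceeded those of most tested Hox genes. That check does not cover small effects or a deviation shared by a whole library. An exact permutation test of 3 against 3 libraries cannot go below 0.10 and was not run. Detailed statistics are given for the leading gene of each paralog number, the 4 smallest p and genes without overlap between groups. For Hoxc13, which the study lists but which was too low to be tested, levels alone are given. Hoxd10 and Hoxd11 were added after their values were seen, as were Hoxa2, Hoxa4, Hoxa5, Hoxa10 and Hoxb6. Of each accompanying list, the 2 highest genes and the 2 with the smallest p are named. Some genes that these rules take are not reported here. The Hox genes and the lists were chosen with earlier results of these data known. Of 20 listed noncoding RNAs of the clusters, 0 had a row in this table. Alternatives covered the pseudocount, filter, scaling, variance model, replicate block, fold minimum and each library left out. Python 3.11.15 and matplotlib 3.10.9 were used for sequences and figures.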

Additional observations from a re-analysis of the deposited data

How the results depend on the processing

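With each library left out in turn, limma called 0 genes (smallest adjusted p 0.137), and over all 16 alternatives it called 0 Hox genes (smallest adjusted p 0.160). Of 17 detailed Hox genes, 13 kept their direction under every alternative. Leaving out 1 library gave a Hox sum difference of 0.073 to 0.11 (log2), a median over tested members of 0.089 to 0.16, 7 to 9 members without overlap that were higher in LAS and 1 to 3 that were lower, and a difference in the share of paralogs 10 and 11 of 0.37 to 3.11 percentage points. The log2 fold change then ran from -0.36 to -0.30 for Hoxb5, 0.26 to 0.41 for Hoxc9, 0.22 to 0.33 for Hoxd9, 0.23 to 0.37 for Hoxb2, 0.40 to 2.70 for Hoxd10 and 0.32 to 2.38 for Hoxd11. For Hoxc11 it ran from -0.061 (without sham 3) to 2.03, and for Hoxa9 from -0.0063 (without LAS 3) to 0.027, with -0.0030 without sham 2. With both sham 3 and LAS 2 left out, chosen after seeing the data, limma called 5 genes, 0 of them Hox genes, the Hox sum difference was 0.0498, the median 0.0348, the share difference -0.79 percentage points, and Hoxd10, Hoxd11 and Hoxc11 had -0.12, -0.042 and -0.78. The cause was not tested. The mean of log2(FPKM + 0.1) in place of the sum gave a Hox difference of 0.21 against 0.10. Requiring at least 1 FPKM in all 6 libraries left 25 tested members. It removed Hoxd10, Hoxd11, Hoxc11, Hoxa2 and Hoxc5, which could then not be fitted. A minimum of 1 FPKM in 3 libraries left 27 members. Deviations from the group mean correlated between same-numbered libraries at r = -0.41, 0.24 and -0.15 for replicates 1, 2 and 3 (across genes, which are not independent replicates). The labels do not say whether a number marks a pair or a batch. These values cannot decide it, because each deviation is taken from a mean of only 3 libraries. With the replicate block limma called 0 genes. The low values of Hoxd10, Hoxd11 and Hoxc11 in sham 3 are limited by the 2 decimals of the table.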

Other observations

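Among the other 209 tested genes with a standard deviation above 1, Srd5a2, a steroid 5-alpha-reductase, had the library pattern most like that of Hoxd10, Hoxd11 and Hoxc11. It was searched for after the pattern had been seen, and likeness was the Pearson correlation of log2(FPKM + 0.1) with the mean of the 3 genes (0.98 over the 6 libraries, a description). Srd5a2 was at 1.80, 6.00 and 1.24 FPKM in LAS and 1.87, 4.93 and 0.10 FPKM in sham libraries. LAS 2 and sham 2 were the highest and sham 3 the lowest, as for Hoxd11 and Hoxc11. Its log2 fold change was 0.99 (SE 1.16, adjusted p = 1.00 from limma). The next gene by likeness, Gm27021, was at 0.59, 0.78 and 0.89 FPKM in LAS and 0, 2.02 and 0 FPKM in sham libraries, and did not share the high value in LAS 2.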
